A study of Danio rerio with 6 samples.

Results

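Eph receptors and their ephrin ligands were examined in tissue posterior to the somites already formed, dissected from zebrafish (Danio rerio) embryos 16 hours after fertilisation. The members are the rows of the deposited count and FPKM tables whose gene name begins with epha, ephb, efna or efnb followed by a digit. There are 28 of them among 32520 genes, made up of 8 EphA receptors, 7 EphB receptors, 8 ephrin-A ligands and 5 ephrin-B ligands. RNA was sequenced from 6 libraries. In the morphant group, 3 libraries were made from embryos given a sall4 morpholino, an antisense reagent against the transcript of a zinc finger regulator. Of the 3 control libraries, control 1 is from scrambled-morpholino embryos, and controls 2 and 3 are from embryos without any injection. No other allele or agent is given in the labels, and a morpholino given by injection is a transient knockdown reagent that is not limited to a cell type. Nothing in the labels ties a library to its own clutch, and the spread behind each p-value may thus be partly technical.

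Eph receptors form the largest family of receptor tyrosine kinases, and their ligands are held on the surface of the neighbouring cell. Ephrin-A ligands are tethered by a lipid anchor and ephrin-B ligands cross the membrane, so a contact between a receptor cell and a ligand cell can signal into both (forward and reverse signalling). In the zebrafish presomitic mesoderm and somites, epha4a is known from the anterior part of each segment and efnb2a from the posterior part, and their contact helps to form the somite border and turn its cells epithelial. The same families keep rhombomeres apart in the hindbrain, steer axons and neural crest cells, and separate arteries from veins.

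Total counts ranged from 18626513 to 42423495 per library. The control libraries held 15487 to 44430 reads on receptors and 7325 to 16813 on ligands, and the morphant libraries 7403 to 23145 and 6496 to 9989. The tailbud markers (5 of 5 found, none at 0) summed to 4642 to 7067 CPM in controls and 4021 to 11182 CPM in morphants. The presomitic and somite markers (8 of 8) summed to 4066 to 4937 and 2981 to 5195 CPM. Markers of the labelled tissue were thus present in every library, but the sums do not give the share of each tissue in a library. The morphants stood apart from one another by gene length. Across genes (which are not independent replicates), relative length correlated with a library's deviation from the mean of the 6 libraries with a Spearman coefficient of −0.42 in morphant 1, 0.43 in morphant 2 and −0.28 in morphant 3, against 0.21, −0.01 and 0.04 in controls 1, 2 and 3. Relative length is the length over that of the median gene with reads. The tested receptor genes are long, with a median of 1.99, and the tested ligand genes shorter, with a median of 1.11, against 1.17 for all tested genes.

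Levels were compared between genes on the FPKM scale, which is per gene length. The most abundant receptor was epha2a, whose mammalian counterpart is known from epithelia, at 112.5 ± 16.3 FPKM in controls and 82.1 ± 13.9 in morphants (SD, n = 3). It was followed by epha4a at 77.4 ± 22.2 and 44.6 ± 16.4 FPKM, ephb4b at 29.4 ± 6.78 and 19.4 ± 9.43 FPKM, and ephb4a at 14.4 ± 4.99 and 8.59 ± 4.96 FPKM. The level of epha2a exceeded that of epha4a within each of the 6 libraries. Together they made up most of the receptor transcript in each library. The share of summed receptor FPKM was 40.6 to 52.9% for epha2a and 23.3 to 32.2% for epha4a over the 6 libraries.

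Among the ligands, efna1b led with 44.2 ± 8.82 FPKM in controls and 82.2 ± 19.5 in morphants. The ephrin-B2 copies came next, efnb2a at 40.5 ± 2.31 and 27.5 ± 3.56 FPKM and efnb2b at 22.9 ± 4.51 and 27.4 ± 12.4 FPKM. In controls efna1b and efnb2a did not differ beyond their spread. No other ligand exceeded the 7.51 FPKM of efnb1 in controls in the mean of either group. The members at the bottom were near the limit of detection, and 5 of the 28, epha4l, ephb1, ephb2a, efna3a and efna5b, had between 14 and 65 reads over all 6 libraries and did not pass the filter on low counts.

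Most of the genes come as a pair of copies, named a and b, and the levels of the copies were unequal. In the RefSeq gene table of the assembly GRCz12tu, epha4a and epha4b lie on the same chromosome with 6 protein-coding genes between them. How each pair arose was not tested. In 9 of 10 pairs 1 copy was the higher in all 6 libraries. The ratio of the mean FPKM of the higher copy to that of the lower was 67.4 for epha4a over epha4b, 10.6 for epha2a over epha2b, 9.42 for efna1b over efna1a and 8.39 for efna5a over efna5b. It was 180.7 for efna3b over efna3a and 19.6 for ephb2b over ephb2a, where the lower copies had 14 and 64 reads in total. For efna2a over efna2b the ratio was 3.46. It was smaller for ephb4b over ephb4a, at 2.12, and for efnb3a over efnb3b, at 1.36. The exception was the ephrin-B2 pair, in which efnb2a exceeded efnb2b in 5 of 6 libraries with a ratio of 1.35. Morphant 2 had the opposite order, with 23.8 FPKM of efnb2a and 41.7 FPKM of efnb2b.

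**Figure D1:**
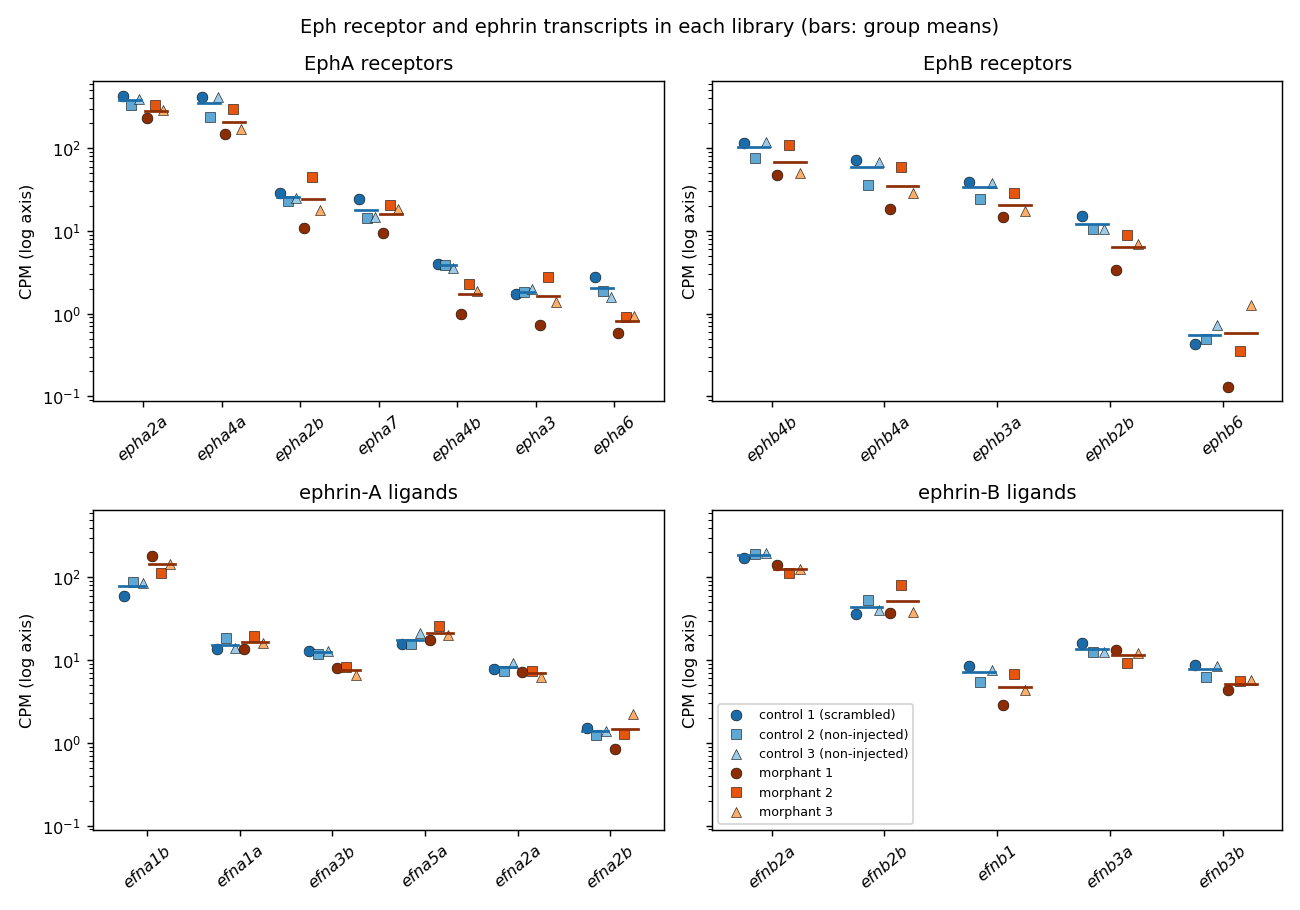
Transcript level of the 23 tested Eph receptor and ephrin genes in each library, in CPM on a log axis, in 4 panels by class. Points are libraries, blue for controls and red to orange for morphants, and bars are group means over 3 libraries. Receptor points of morphant 1 lie lowest, efna1b is higher in all morphants, and efnb2a and efna3b are lower in all morphants.

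The question put to these libraries is which caudal transcripts change under the sall4 morpholino. No Eph or ephrin gene passed the threshold. By edgeR's quasi-likelihood test with Benjamini-Hochberg adjustment over 17803 genes, 0 of the 23 tested members were lower and 0 higher at an adjusted p of 0.05, where 0% and 0.0281% of all tested genes were called. At an unadjusted p under 0.05, 4 members were lower (epha4b, epha6, efna3b and efnb2a) and 1 was higher (efna1b), against 5.19% and 4.47% of all tested genes. DESeq2 also called 0 members, where it called 0.961% of genes lower and 0.928% higher. All morphants lay below all controls for 7 tested members and above them for 1, against 9.18% and 7.77% of all tested genes. The log2 fold change, morphant minus control, was below 0 for 17 of the 23 tested members, with a median of −0.45, while it was below 0 for 41.8% of all tested genes, with a median of 0.12. In bulk tissue, fewer cells of a type and less RNA per cell cannot be told apart.

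Receptors and ligands are given apart, and the difference between the classes was not tested. Of the 12 tested receptors 11 had a log2 fold change below 0, with a median of −0.66, and of the 11 tested ligands 6 did, with a median of −0.24. By class the medians were −0.45 for 7 EphA receptors, −0.73 for 5 EphB receptors, 0.11 for 6 ephrin-A ligands and −0.56 for 5 ephrin-B ligands. The other receptor tyrosine kinases, which are long genes too (median relative length 2.79), had a median of −0.24 over 35 tested genes, with 24 below 0. By edgeR 0 of those 35 passed the threshold and DESeq2 called 1 lower, pdgfrb, a receptor of vessel-supporting cells, with a mean of 7.28 ± 1.97 CPM over controls against 1.55 ± 0.52 CPM over morphants (fitted log2 fold change −2.21, SE 0.40, with an adjusted p of 0.17 by edgeR and 0.00014 by DESeq2). Second in that list by p was fgfr1b (−0.99, SE 0.28). Without morphant 2 the median of these kinases was −0.80, with 8 lower and 0 higher by edgeR and 12 lower and 0 higher by DESeq2. Of all tested genes, 4.37% were then lower and 4.09% higher by edgeR, and 9.69% and 10.1% by DESeq2. With the length trend removed from all 6 libraries the median of these kinases was −0.17.

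Marker lists of other tissues are given beside the receptors. Neural crest markers (5 of 5 found), from cells that Eph receptors are known to steer, summed to 314.5 to 350.8 CPM in controls and 152.0 to 222.8 CPM in morphants, with a median log2 fold change of −1.04 and 4 of 5 at an unadjusted p under 0.05. Neural tube markers (8 of 8) summed to 1027 to 1059 CPM in controls and 549.6 to 951.6 CPM in morphants, with a median of −0.57 and 2 at that p. The sums of the groups did not overlap for either list. Blood markers (6 of 6) had sums of 113.5 to 315.5 CPM in controls and of 327.0 to 1312 CPM in morphants, with a median of 1.76 and 4 at that p. At that p, 5.19% of all tested genes were lower and 4.47% higher. By edgeR 0 genes of these lists passed the threshold. DESeq2 called the crest genes sox10 (adjusted p = 0.00022) and snai1b (0.018) and the neural gene elavl3 (0.024) lower. It called the blood gene hbbe2 (adjusted p = 0.0051) higher, and the other genes of these lists did not pass. Not every gene moved with its list. By edgeR the log2 fold change was 0.44 for the neural gene neurog1 and 0.0087 for sox2. It was −0.038 for the crest gene tfap2a and −0.11 for the blood gene tal1. Of all tested genes, DESeq2 called 0.961% lower and 0.928% higher. Their part in the values of the Eph and ephrin genes was not tested.

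Among the EphA receptors, epha2a (ENSDARG00000017354) was measured at 432.4, 330.0 and 392.6 CPM in controls 1, 2 and 3 and at 228.8, 329.9 and 287.9 CPM in morphants 1, 2 and 3. All morphants lay below all controls, but morphant 2 and control 2 were nearly equal. Its log2 fold change was −0.45 (SE 0.26, and adjusted p = 0.60 by edgeR). The values of its copy epha2b (ENSDARG00000022727) were 29.0, 22.8 and 24.7 CPM in controls and 10.7, 45.0 and 17.9 CPM in morphants. Morphant 2 was the highest library and morphants 1 and 3 the lowest, and the log2 difference was −0.05 (SE 0.49, edgeR adjusted p = 0.97).

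The segment border receptor epha4a (ENSDARG00000054454) stood at 410.1, 238.6 and 410.9 CPM in controls 1, 2 and 3 and at 150.3, 296.7 and 169.1 CPM in morphants 1, 2 and 3. Controls 1 and 3 were high, morphants 1 and 3 low, and morphant 2 lay above control 2, so the groups overlapped. The log2 fold change was −0.78 (SE 0.36, and adjusted p = 0.54 by edgeR), a 1.72-fold lower fitted level in morphants that did not pass the test.

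The low-level copy epha4b (ENSDARG00000011600) was found at 4.01, 3.89 and 3.59 CPM in controls and at 0.99, 2.27 and 1.88 CPM in morphants, from 15 to 147 reads per library. All morphants were below all controls, and the controls differed little from one another. The log2 fold change was −1.14 (SE 0.39, unadjusted p = 0.019, edgeR adjusted p = 0.40). The most negative value of the family was that of epha6 (ENSDARG00000022971), a receptor known from neurons in mammals, at 2.75, 1.87 and 1.59 CPM in controls and 0.59, 0.90 and 0.94 CPM in morphants. Its groups did not overlap either, and its log2 fold change was −1.33 (SE 0.42, unadjusted p = 0.013, edgeR adjusted p = 0.38) on 9 to 65 reads per library. Of the other tested EphA genes, epha7, which in mice acts in neural tube closure and axon mapping, had a log2 fold change of −0.15 (SE 0.38), and epha3 one of −0.16 (SE 0.50), both with overlapping groups.

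EphB receptors bind mainly ephrin-B ligands. The most abundant, ephb4b (ENSDARG00000027112), stood at 115.1, 76.7 and 118.5 CPM in controls 1, 2 and 3 and at 47.2, 109.2 and 50.3 CPM in morphants 1, 2 and 3 (log2 fold change −0.59, SE 0.39, edgeR adjusted p = 0.62). Its copy ephb4a (ENSDARG00000100725), known as the receptor of veins that faces the arterial ligand efnb2a, stood at 72.7, 35.9 and 67.3 CPM in controls and at 18.5, 59.1 and 28.6 CPM in morphants (−0.73, SE 0.47, adjusted p = 0.62). Morphant 2 was nearer to controls 1 and 3 than to the other morphants for both genes, while morphants 1 and 3 were the lowest of the 6 libraries. The values of ephb3a (ENSDARG00000031548), whose mammalian counterpart guides axons, were 39.0, 24.3 and 38.1 CPM in controls and 14.6, 28.9 and 17.5 CPM in morphants (−0.73, SE 0.35, adjusted p = 0.55). Those of ephb2b, the counterpart of an axon guidance receptor of mice, were 10.4 to 15.1 CPM in controls and 3.35 to 8.92 CPM in morphants, with all morphants below all controls (−0.90, SE 0.41, adjusted p = 0.53). Among the tested receptors the exception to the sign was ephb6, whose mammalian counterpart lacks kinase activity. It had 0.13 to 1.27 CPM over the 6 libraries and a log2 fold change of 0.096 (SE 0.73). Of the receptors that did not pass the filter, ephb2a (6 to 27 reads per library) and epha4l (2 to 10) had all morphants above all controls in CPM, and ephb1 had overlapping groups. Such separation was found for 7.77% of all tested genes. The read counts of epha4l overlapped between groups, and the lowest morphant of ephb2a had 8 reads against 7 in the highest control.

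The endothelial markers, set beside ephb4a (6 of 6 found, none at 0 in all libraries), summed to 142.7 to 177.6 CPM in controls and 124.7 to 167.2 CPM in morphants, with a median log2 fold change of 0.057 and 0 members at an unadjusted p under 0.05. Hindbrain and anterior brain markers, which belong to tissue where epha4a is also known, summed to 108.6 to 153.2 CPM in controls and 61.9 to 120.0 CPM in morphants (7 of 7 found, 5 tested), with a median log2 fold change of 0.30 and 0 at that p. Most of the sum came from gbx2 and mafba, with log2 fold changes of −0.72 and −0.29. The lower-level egr2b, otx2b and pax2a had values of 1.37, 0.30 and 0.34.

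**Figure D2:**
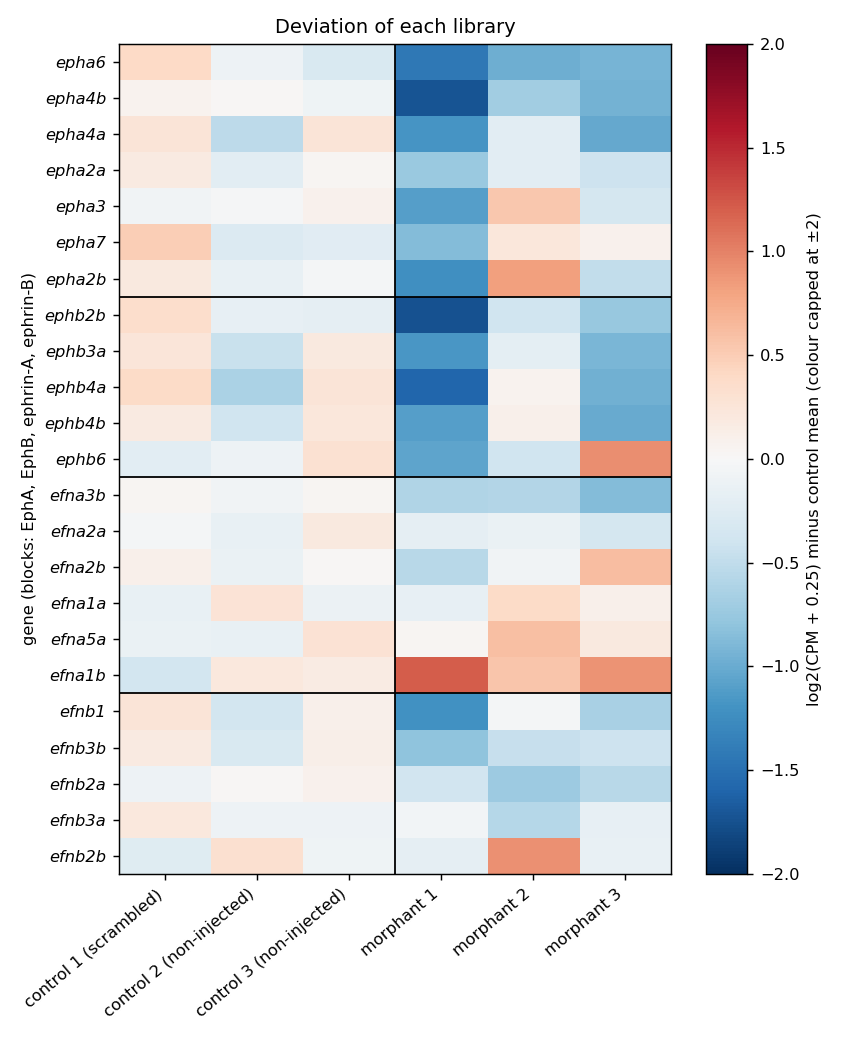
Deviation of each library from the control mean for the 23 tested genes, as log2(CPM + 0.25) with the colour capped at 2 either way, in blocks by class. The column of morphant 1 is blue throughout the receptor blocks, and the column of morphant 2 is pale or red for epha2b, epha3, ephb4a and ephb4b, where morphants 1 and 3 are blue.

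Morphant 1 was the lowest of the 6 libraries for 12 of 12 tested receptors, against 4 of 11 ligands, 71.4% of the other receptor tyrosine kinases and 31.8% of all tested genes. Morphant 2 was the highest morphant for 10 of 12 receptors, against 85.7% of the other receptor tyrosine kinases and 45.3% of all tested genes. The full order of libraries was shared by 4 of 12 receptors only. For epha4a, ephb3a, ephb4a, ephb4b and the ligand efnb1, controls 1 and 3 were followed by morphant 2, control 2, morphant 3 and morphant 1, an order chosen after the values were seen and held by 2.55% of all tested genes. The whole epidermis list (5 of 5 found) summed to 6873 to 9745 CPM in controls and 3496 to 6946 CPM in morphants (median log2 fold change −0.38), and the notochord list (4 of 4) to 530.2 to 995.6 and 345.3 to 534.0 CPM (median −0.59). The part of these tissues in the receptor values was not tested.

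The ephrin-A ligand efna1b (ENSDARG00000018787) was the only tested member with all morphants above all controls. It was measured at 59.3, 88.6 and 86.3 CPM in controls 1, 2 and 3 and at 179.0, 113.1 and 143.3 CPM in morphants 1, 2 and 3. Lowest of the 6 was the scrambled-injected control. On the log2 scale the fold change was 0.89 (SE 0.29, unadjusted p = 0.015, edgeR adjusted p = 0.40 and DESeq2 adjusted p = 0.20). Its human counterpart was first described as a gene induced in endothelial cells by an inflammatory cytokine. The level of the other copy, efna1a (ENSDARG00000030326), was 13.5, 18.3 and 13.8 CPM in controls and 13.5, 19.6 and 16.1 CPM in morphants, with overlapping groups (log2 fold change 0.11, SE 0.29, edgeR adjusted p = 0.89).

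The ligand efna3b (ENSDARG00000098295) was at 12.7, 11.9 and 12.7 CPM in controls, against 8.08, 8.22 and 6.69 CPM in morphants. The groups did not overlap, and the spread within each was small (SD 0.51 and 0.84 CPM). The fitted log2 fold change was −0.70 (SE 0.27, unadjusted p = 0.032, edgeR adjusted p = 0.47). In the RefSeq gene table of the assembly GRCz12tu, in which 28 of 28 members were matched by symbol, efna3b and efna1b are neighbours with 0 protein-coding genes between them, and their log2 fold changes had opposite signs. The other tested ephrin-A genes, efna2a and efna5a, both known for guiding retinal axons, and efna2b, had log2 fold changes of −0.24, 0.29 and 0.10, with adjusted p-values from 0.72 to 0.94 and overlapping groups.

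Among the ephrin-B ligands, the segment border ligand efnb2a (ENSDARG00000020164) stood at 173.3, 189.7 and 197.0 CPM in controls 1, 2 and 3 and at 142.3, 112.4 and 126.2 CPM in morphants 1, 2 and 3. All morphants were below all controls, and here morphant 2 was the lowest library. The log2 fold change was −0.56 (SE 0.24, unadjusted p = 0.048, edgeR adjusted p = 0.51). Its copy efnb2b (ENSDARG00000074050) stood at 36.2, 53.3 and 40.3 CPM in controls and 37.4, 80.4 and 38.4 CPM in morphants. Morphant 2 and then control 2 were the highest, and the fitted change was 0.27 on the log2 scale (SE 0.37, edgeR adjusted p = 0.79).

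The values of efnb1 (ENSDARG00000007723), whose human counterpart is mutated in craniofrontonasal syndrome, were 8.40, 5.36 and 7.55 CPM in controls and 2.89, 6.77 and 4.37 CPM in morphants (a log2 difference of −0.60, SE 0.39, edgeR adjusted p = 0.62). The groups overlapped through morphant 2 and control 2. The ephrin-B3 copies, whose mouse counterpart forms a midline barrier to axons in the spinal cord, had log2 fold changes of −0.59 for efnb3b (SE 0.31) and −0.26 for efnb3a (SE 0.29). All morphants were below all controls for efnb3b, at 4.33 to 5.71 against 6.20 to 8.83 CPM, and not for efnb3a.

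**Figure D3:**
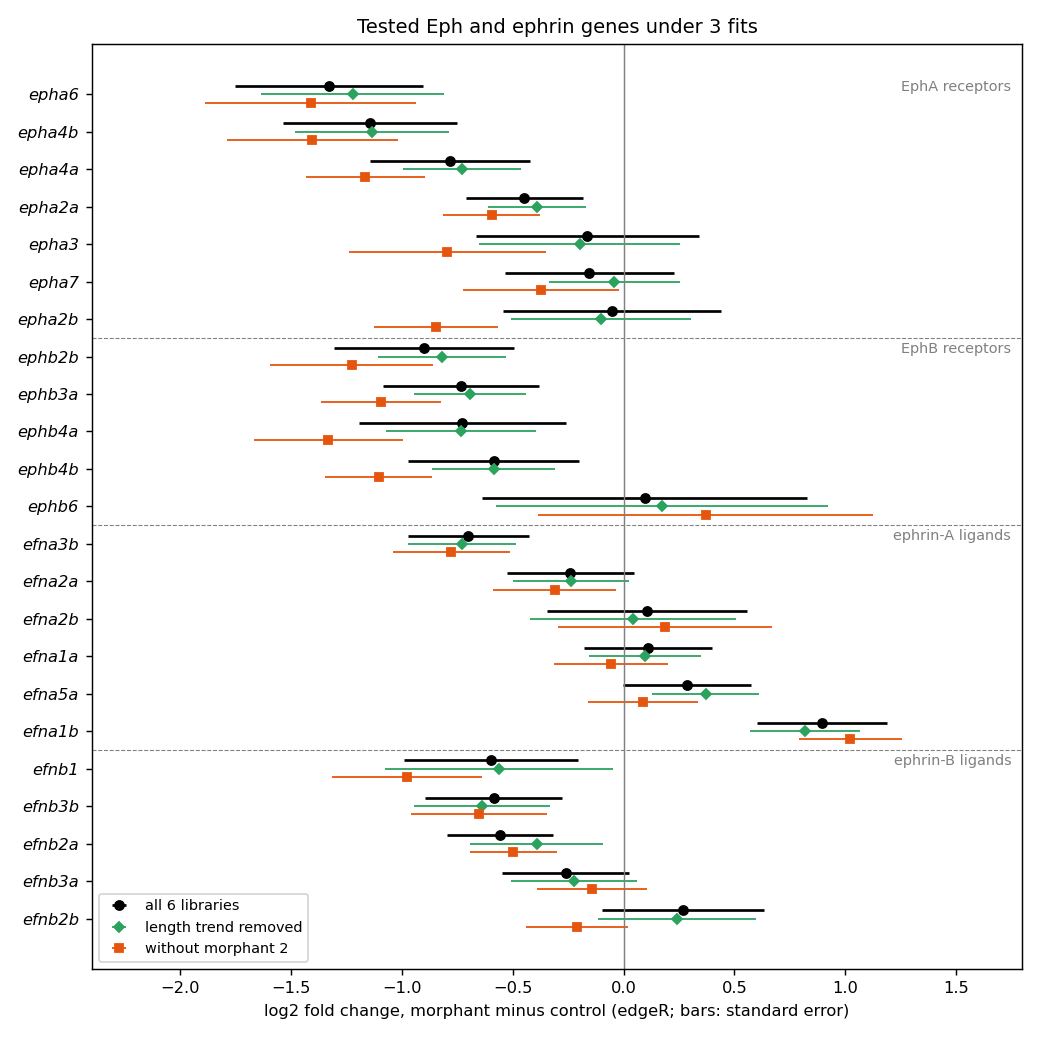
Log2 fold change, morphant minus control, of each tested gene from edgeR with all 6 libraries (black), with the gene length trend removed (green) and without morphant 2 (orange), with bars of 1 standard error. Orange points of epha4a, ephb3a, ephb4a and ephb4b lie near −1.1 to −1.3, left of the black points at −0.59 to −0.78, and efna1b lies right of 0 in all 3 fits.

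The calls depended on morphant 2. Without it, edgeR called 4 of 23 tested members lower, epha4a (log2 fold change −1.16, adjusted p = 0.041), ephb3a (−1.09, 0.045), ephb4a (−1.33, 0.046) and ephb4b (−1.11, 0.037), and 1 higher, efna1b (1.02, 0.040), where 4.37% and 4.09% of all tested genes were called. Its receptor median was −1.10, beside −0.80 for the other receptor tyrosine kinases and −0.042 for all tested genes. DESeq2 without morphant 2, a fit added after the data were seen, called 9 members lower and 1 higher, against 9.69% and 10.1% of all genes. The 5 more lower members there were epha2b, epha4b, ephb2b, efna3b and efnb1. In the 2 morphants that are left in these fits long genes were low (correlations −0.42 and −0.28), and there the length trend and the morpholino cannot be told apart by that fit alone. With the length trend removed and without morphant 2, edgeR called 0 members lower and 1 higher, efna1b (0.92, adjusted p = 0.041), against 2.49% and 3.07% of all genes. The adjusted p-values of epha4a, ephb3a, ephb4a and ephb4b were then 0.054 to 0.070, with log2 fold changes of −0.80 to −1.03.

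**Figure D4:**
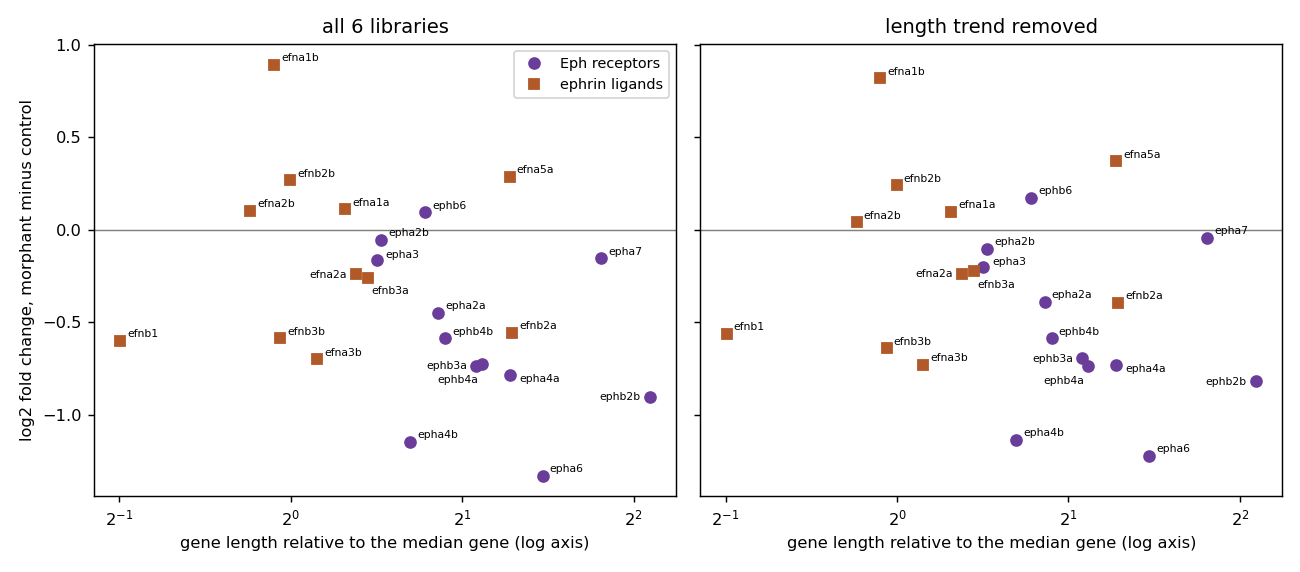
Log2 fold change of the 23 tested genes against gene length relative to the median gene (log axis), with all 6 libraries on the left and with the length trend removed on the right, receptors as purple circles and ligands as brown squares. Receptors lie to the right of most ligands, and 11 of the 12 receptors are below 0 in both panels.

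With all 6 libraries, removal of the length trend left the receptor values nearly as they were. The receptor median was −0.64 and the ligand median −0.22, and 11 of 12 receptors and 6 of 11 ligands were below 0. Across the 23 tested members the Spearman correlation between relative length and log2 fold change was −0.41 without the removal (Pearson −0.37), a description, since the genes share the 6 libraries and receptor class goes with length. Over all tested genes the Spearman correlation was −0.086. With the trend removed, 6 members were lower at an unadjusted p under 0.05, epha4a, epha4b, epha6, ephb2b, ephb3a and efna3b, against 6.39% of all tested genes, and 1 higher, efna1b, against 5.98%. Their edgeR adjusted p-values lay between 0.27 and 0.34. The value of efnb2a moved from −0.56 to −0.39 (SE 0.30). Without morphant 2, removal of the length trend moved the receptor median from −1.10 to −0.75.

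Control 2 was low for several receptors. It was the lowest control for 7 of 12 tested receptors and 7 of 11 ligands, against 37.9% of all tested genes. Control 2 and control 3 are both non-injected, while control 1 was injected with the scrambled morpholino, and control 1 and control 3 were close for epha4a, ephb3a and ephb4b. For epha2b, epha6, epha7 and ephb2b, controls 2 and 3 were instead the closer pair and control 1 the highest control. The values of epha7 were 24.6, 14.4 and 14.9 CPM in controls 1, 2 and 3. Without control 2 the receptor median was −0.84, and with the non-injected controls alone it was −0.53. Of the morphants, leaving out morphant 1 moved the receptor median from −0.66 to −0.39, with 8 of 12 below 0, and leaving out morphant 3 to −0.61. The ligand median of −0.24 was −0.15 over the same 11 ligands without control 1. Without control 2, control 3 or morphant 1 it was −0.14, −0.047 and −0.0085, but over 12 ligands, as another ligand passed the filter. These medians are thus not over the same genes as −0.24. The value of efna2a, the median ligand with all 6 libraries, was −0.32, −0.14 and −0.25 in those fits. With all 6 libraries and no filter on low counts, the ligand median was 0.094 over 13 ligands, and 12 of 15 receptors were below 0.

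Within a library, the balance of receptor and ligand transcripts does not depend on the scaling between libraries, but receptors are the longer genes and the ratios carry the length trend. The summed FPKM of receptors was 298.8, 197.8 and 278.8 in controls 1, 2 and 3 and 128.0, 231.3 and 161.2 in morphants 1, 2 and 3. The summed FPKM of ligands was 131.9, 153.2 and 151.9 in controls and 179.9, 163.8 and 162.8 in morphants. Receptors thus exceeded ligands 1.29 to 2.26 times in controls, and the ratio was 0.71, 1.41 and 0.99 in morphants 1, 2 and 3. The groups overlapped through control 2 and morphant 2. The mean log2 ratio was 0.81 ± 0.41 in controls and −0.0024 ± 0.49 in morphants (exact two-sided permutation test over libraries, p = 0.20, where 0.10 is the smallest value that 3 against 3 can give). With efna1b left out of the ligands, the ratio was 1.91 to 3.05 in controls and 1.63 to 2.28 in morphants (exact permutation p = 0.30). The log2 difference between groups was −0.81, ranging from −0.57 without morphant 1 to −1.06 without morphant 2, and without efna1b it was −0.36, ranging from −0.22 without control 1 to −0.55 without control 2. With the length trend removed over the tested members, a calculation added after the data were seen, the differences were −0.73 and −0.34 (−0.80 and −0.33 without morphant 2). The groups then did not overlap for the first ratio (exact permutation p = 0.10, the smallest possible) and overlapped for the second (p = 0.20).

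**Figure D5:**
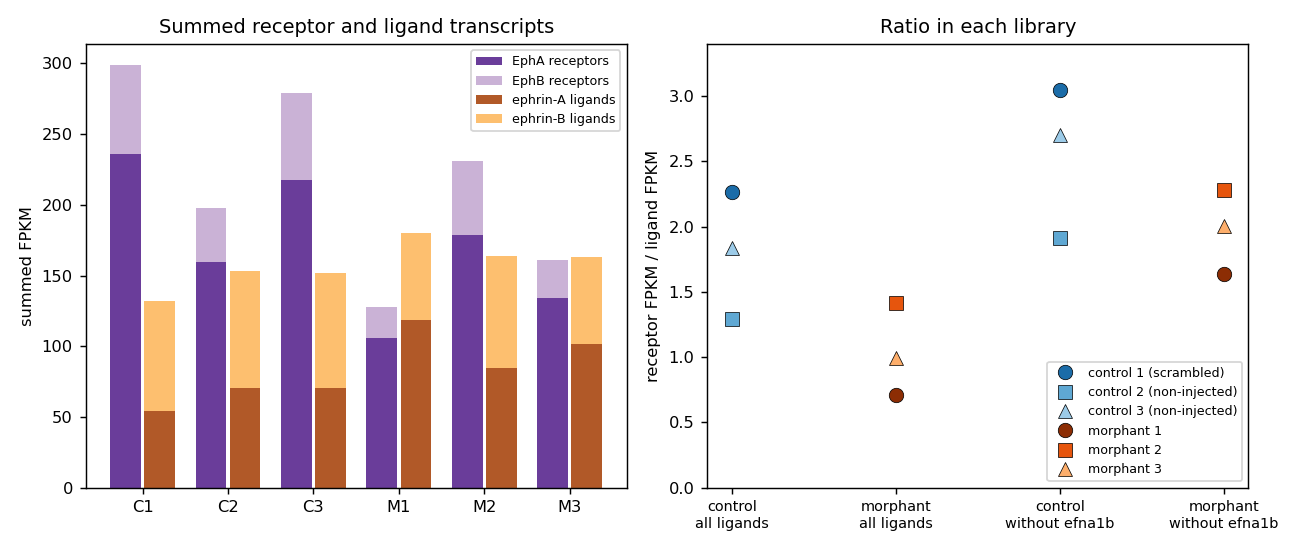
Left, summed FPKM of EphA and EphB receptors (purple bars) and of ephrin-A and ephrin-B ligands (brown bars) in controls C1 to C3 and morphants M1 to M3. Right, the ratio of receptor to ligand FPKM in each library with all ligands and without efna1b. The ligand bar is the taller in M1 and M3 only. With all ligands the control and morphant ratios overlap through control 2 and morphant 2, and without efna1b morphant 2 and morphant 3 both lie above control 2.

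The share of efna1b in summed ligand FPKM was 25.8, 32.5 and 32.1% in controls and 56.4, 38.2 and 50.6% in morphants, and that of efnb2a was 28.9, 26.6 and 28.1% in controls and 17.2, 14.5 and 17.1% in morphants. Neither pair of groups overlapped. Both are shares of the same sum, so a higher level of efna1b lowers the share of efnb2a, and they are not separate results. For epha2a over efna1b, receptor and ligand of the A class with the highest levels, the mean log2 ratio was 1.36 ± 0.50 in controls and 0.012 ± 0.60 in morphants. No morphant ratio reached that of a control (exact permutation p = 0.10, the smallest possible, and 0.25 adjusted over the 5 ratios tested with the length trend kept). All morphants already lay below all controls for epha2a and above them for efna1b. The groups of this ratio thus could not overlap, and its p-value is not a separate result. The difference of −1.35 ranged from −1.04 without morphant 1 to −1.64 without morphant 2, and was −1.22 with the length trend removed. The ratios of efna1b to efna1a (mean log2 difference 0.79) and of efnb2a to efnb2b (−0.75) overlapped between groups (exact permutation p = 0.20 for each, 0.25 adjusted over the 5 ratios). With single libraries left out these differences ranged from 0.49 without morphant 1 to 1.09 without morphant 2, and from −0.31 without morphant 2 to −1.03 without morphant 1. The log2 ratios of epha4a and of ephb4a to efnb2a were computed but not tested, and both overlapped between groups. For epha4a they were 1.25, 0.34 and 1.07 in controls 1, 2 and 3 and 0.090, 1.41 and 0.43 in morphants 1, 2 and 3. For ephb4a they were −1.08, −2.23 and −1.38 in controls and −2.77, −0.75 and −1.97 in morphants.

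Cytoplasmic and membrane partners of Eph receptors and ephrins were given by a list of 51 genes, of which 47 were tested. Their median log2 fold change was −0.14, and 28 were below 0. By edgeR and by DESeq2 0 passed the threshold. At an unadjusted p under 0.05, where 5.19% of all tested genes were lower and 4.47% higher, there was 1 lower and 0 higher. That gene was abl2, a cytoplasmic tyrosine kinase that relays Eph signals to the cytoskeleton, with means of 84.6 ± 19.5 CPM for controls and 51.7 ± 11.1 CPM for morphants (−0.71, SE 0.29, edgeR adjusted p = 0.50). Next by p was fyna, a Src family kinase, at 4.12 ± 0.87 and 6.46 ± 0.72 CPM (0.65, SE 0.32, adjusted p = 0.56). Without morphant 2 the median of the list was −0.30, with 6 lower and 0 higher by edgeR and 9 lower and 1 higher by DESeq2. Among all tested genes 4.37% and 4.09% were then called by edgeR and 9.69% and 10.1% by DESeq2. With the length trend removed the median of the list was −0.11. At an unadjusted p under 0.05 there were then 0 lower and 2 higher, against 6.39% and 5.98% of all tested genes. The long gene abl2 (relative length 4.27) was thus not among the lower genes in that fit.

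Genes of somite borders and segment compartments, the setting in which epha4a and efnb2a act in this tissue, numbered 25, all tested. Their median log2 fold change was 0.26, with 15 above 0. By edgeR and DESeq2 0 passed the threshold. At an unadjusted p under 0.05 there were 0 lower and 4 higher, against 5.19% and 4.47% of all tested genes. The smallest p-values were those of tbx18, a regulator of the anterior segment compartment, with means of 2.49 ± 0.48 CPM for controls and 5.68 ± 1.64 CPM for morphants (1.19, SE 0.37, edgeR adjusted p = 0.37), and uncx4.1, of the posterior compartment, at 2.97 ± 0.61 and 5.85 ± 1.72 CPM (0.98, SE 0.36, adjusted p = 0.44). All morphants were above all controls for both. Without morphant 2 the median of the list was 0.053, with 0 lower and 3 higher by edgeR and 2 lower and 5 higher by DESeq2. The shares of all tested genes were then 4.37% and 4.09% by edgeR and 9.69% and 10.1% by DESeq2. With the length trend removed the median of the list was 0.11.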

How the data were processed

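Per the labels' protocols, strand-specific Illumina libraries were made from RNA of the dissected tissue. The authors deposited whole-number counts per Ensembl gene and FPKM values. STAR 2.7.10a, DESeq2 1.38.3 and the build GRCz11 appear, without roles, in the submitters' processing notes. Counting tool and strand setting: not given in the sources used here, so reads of close paralogues or overlapping genes may be split or shared. Ratios of the deposited counts to FPKM gave relative gene lengths. The FPKM scale followed median-of-ratios size factors within 1.03-fold and totals within 1.42-fold.

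The main test was edgeR 4.0.16 (R 4.3.3) with filterByExpr, TMM and a quasi-likelihood F test on group, two-sided, adjusted over 17803 genes (threshold 0.05). The SE is the log2 fold change over the square root of F. CPM use TMM-scaled library sizes. Alternatives used DESeq2 1.42.0, limma 3.58.1 on log2(FPKM + 1) and log2(FPKM + 0.1), and offsets from a lowess curve (span 0.3) on log2 relative length. Depth was 18626513 to 42423495 counts, which leaves members under 1 CPM with few reads. The fits were tested on simulated counts. Figures used matplotlib 3.10.9.

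Members given library by library had an unadjusted p under 0.05, were among the 3 highest in mean FPKM of their class, or were epha4a, ephb3a, ephb4a, efnb2a or efnb2b. Of each partner list, the 2 genes with the smallest p are named. Members, lists and rules were chosen with earlier results of these data known.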

Additional observations from a re-analysis of the deposited data

How the results depend on the processing

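The median log2 fold change of the tested members, −0.45, was below 0 in all 19 alternatives, from −0.27 to −0.67, within 1 SD between libraries (0.29) of the value given. The number of members called, 0, was 0 in the alternatives with these exceptions, all of them without morphant 2. It was 1 with the length trend removed as well, 10 by DESeq2, and 0 to 5 with single libraries left out. The number of all genes called, 5, was 1 with library-size scaling, 28 with no filter, 9 with at least 1 CPM in every library of a group, 336 by DESeq2, 11 and 16 on log2(FPKM + 1) and log2(FPKM + 0.1), 0 with the non-injected or the scrambled control alone (the latter 1 library, taken to vary as morphants do), 20 with the length trend removed, 1009 with that and without morphant 2, 3576 by DESeq2 without morphant 2, and 0 to 1534 with single libraries left out.

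The deviations of same-numbered libraries correlated at −0.29, −0.095 and 0.16 for numbers 1, 2 and 3, against −0.24 to 0.30 for different numbers. With 3 libraries per group, these values cannot tell whether libraries of the same number shared a clutch or batch. With the replicate number as a block 0 genes and 0 members were called.

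For 16 of the 23 members the sign was the same in every alternative run. The other 7 had log2 fold changes from −0.16 (epha3) to 0.27 (efnb2b) in the main fit, and signs turned for 22 values. The fit with the non-injected controls only is also the fit without control 1. It is counted under both names, here and among the 19 alternatives. In this fit epha2b was 0.040, epha7 0.13 and ephb6 −0.041. Without morphant 1, epha2b was 0.31, epha3 0.18 and epha7 0.12. Without morphant 2, efna1a was −0.056 and efnb2b −0.21 by edgeR, and −0.033 and −0.19 by DESeq2. Without morphant 3, epha2b was 0.13, ephb6 −1.12 and efna2b −0.34. With the length trend removed and without morphant 2, epha7 was 0.078 and efnb2b −0.27. On log2(FPKM + 0.1), ephb6 was −0.14 and efna2b −0.0082. The block gave −0.23 for ephb6, and the scrambled control alone −0.030 for efna2b. With single libraries left out, values ranged up to 0.26 for efna1a, 0.37 for efna2b, 0.46 for efnb2b and 0.52 for ephb6, and down to −0.85 for epha2b, −0.80 for epha3 and −0.37 for epha7. For these 7 genes the cause was not tested.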
